A study of Mus musculus with 12 samples.

Results

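The respiratory chain and ATP synthase genes were examined in cultured mouse neural progenitor cells (mNPCs). Members were chosen by symbol and by the protein-coding biotype: all genes starting with mt-, those starting with Nduf, Uqcr, Cox4, Cox5, Cox6, Cox7, Cox8 or Atp5, together with Sdha, Sdhb, Sdhc, Sdhd and Cycs. Of the 18911 genes in the count table, 105 were members, 13 encoded in the mitochondrial DNA and 92 in the nucleus. By symbol, 38 nuclear members belonged to complex I, 8 to its assembly factors (Ndufaf), 4 to complex II, 8 to complex III, 17 to complex IV and 16 to complex V (ATP synthase), and Cycs encodes cytochrome c. The prefix also takes in Atp5s and Cox7a2l, whose products are not core subunits. The annotation held 108 such genes, and Atp5g2, Cox8c and a second Atp5o identifier were not analysed here.

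The mNPCs were grown from the hippocampus of P0 pups of C57BL/6J background, and poly(A) RNA was sequenced from 3 libraries of each of 4 genotypes. Kmt2a+/+ cells carried both intact alleles of Kmt2a, which encodes a histone H3 lysine 4 methyltransferase. Kmt2a+/LSL cells carried on 1 allele a loxP-stop-loxP (LSL) cassette in the first intron, which ends the transcript early. The nes-cre+/- cells carried a Cre transgene driven by nestin sequences, active in neural progenitors. In nes-cre+/-Kmt2a+/LSL cells the Cre could remove the cassette, so that the allele was restored in the cells where nestin is active. Genotypes shared the strain, the age and the culture. Which pups, litters or sexes gave each library is not stated in the sources used here, so p-values measure the spread between libraries, which may be technical.

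The respiratory chain passes electrons from NADH (complex I) and succinate (complex II) through complex III and cytochrome c to oxygen at complex IV, and complex V uses the resulting proton gradient to make ATP. Complexes I, III, IV and V are built from products of both genomes, whereas complex II is wholly nuclear. The mitochondrial genes are transcribed as long polycistronic RNAs from both strands of the mitochondrial DNA, cut apart and polyadenylated, while each nuclear gene has its own promoter. The comparison of both sets over 12 libraries therefore asked whether the level of Kmt2a moved either set, and whether the sets moved together.

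Library totals ranged from 18280008 to 28596919 counts, and 3 counts, taken as the floor of detection, corresponded to 0.105 to 0.164 CPM (counts scaled to a common library size). Kmt2a averaged 289.8 CPM (SD 9.92, n = 3) in Kmt2a+/+ and 166 (SD 0.392) in Kmt2a+/LSL, against 297 (SD 13.7) with nes-cre+/- alone and 272 (SD 12.7) with nes-cre+/-Kmt2a+/LSL. All 3 libraries of Kmt2a+/LSL lay below the other 9. All 15 neural progenitor markers were in the table and summed to between 9893 and 19030 CPM. Astrocyte markers summed to between 1566 and 4843 CPM and oligodendrocyte lineage markers to between 1277 and 5875, while microglial markers stayed at or below 2.50, with C1qa not in the table. Kmt2a+/+ library 1 stood apart: the median Pearson correlation of its log2 CPM with the other libraries of its genotype was 0.832, against 0.896 to 0.981 for the remaining 11 libraries. In the members, libraries 1 and 3 of Kmt2a+/+ and of nes-cre+/-Kmt2a+/LSL also departed from the rest, and for the medians and the members with the largest differences, the value without 1 of them is given where it lay nearer 0 by over 1.5 times or past 0. In bulk RNA, fewer cells of a type and less RNA per cell cannot be told apart.

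The 13 mitochondrially encoded genes took most of the RNA assigned to the respiratory chain. Their share of all counts was 12.7%, 5.69% and 3.96% for the Kmt2a+/+ libraries 1 to 3 and 6.88%, 6.72% and 5.67% for Kmt2a+/LSL. It was 5.87%, 6.28% and 5.75% for nes-cre+/- and 10.3%, 6.36% and 5.69% for nes-cre+/-Kmt2a+/LSL. The Kmt2a+/+ libraries thus held both the highest and the lowest of the 12 shares. The genotype means were 7.43% ± 4.60, 6.43% ± 0.657, 5.96% ± 0.277 and 7.46% ± 2.51 in the same order (SD, n = 3), and all 4 ranges overlapped. Without library 1, the Kmt2a+/+ mean was 4.82%, the lowest of the 4, and without library 1 the nes-cre+/-Kmt2a+/LSL mean was 6.03%.

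The 92 nuclear members together held a narrow share of counts, from 0.987% to 1.33%. Their means by genotype, in the order used above, were 1.10% ± 0.115, 1.05% ± 0.0653, 1.02% ± 0.0291 and 1.14% ± 0.172 (SD, n = 3). Mitochondrially encoded counts per nuclear count were 5.73 to 5.93 in the nes-cre+/- libraries, the tightest genotype, and 3.23 to 12.3 in Kmt2a+/+, the widest. The libraries with the most mitochondrially encoded RNA did not hold the most nuclear respiratory chain RNA: nes-cre+/-Kmt2a+/LSL library 3 had the highest nuclear share and the second lowest ratio, 4.28.

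**Figure D1:**
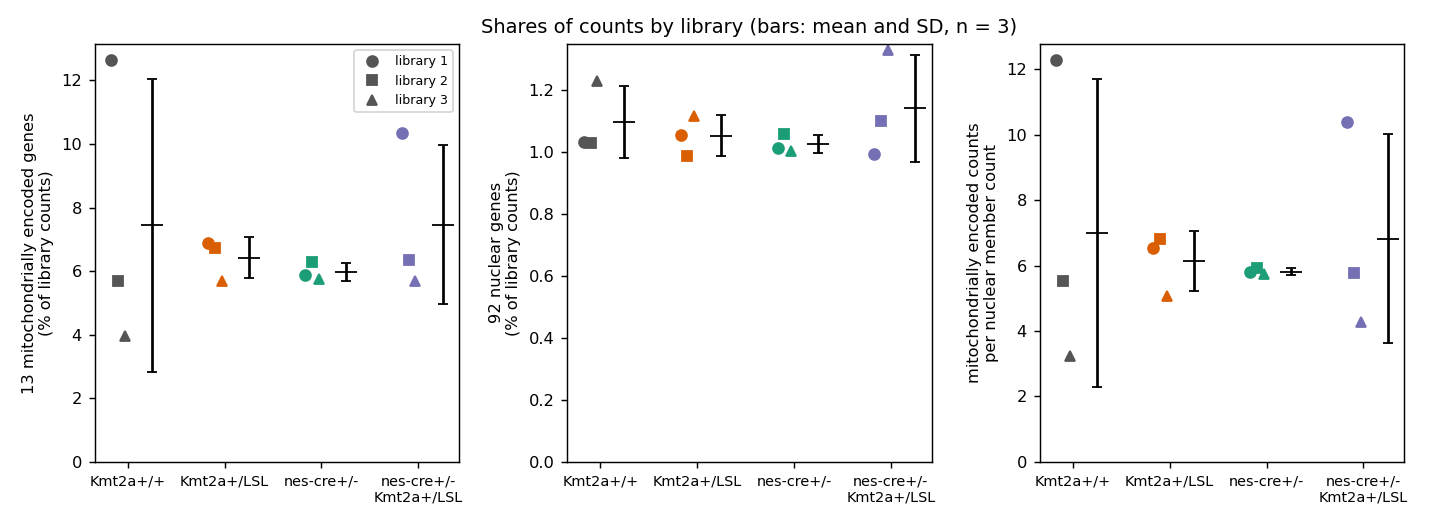
Percent of library counts in the 13 mitochondrially encoded genes (left), in the 92 nuclear members (middle), and the ratio of both (right), by genotype. Points are libraries and bars give the mean and SD of 3; library 1 of Kmt2a+/+ (12.7%) and of nes-cre+/-Kmt2a+/LSL (10.3%) lie above the other 10, while the nuclear share stays between 0.987% and 1.33%.

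Levels between genes were compared as CPM per kilobase of transcript, averaged over the 12 libraries. The median mitochondrially encoded gene was at 4779 and the median tested nuclear member at 97.6 CPM per kilobase, a ratio of 49.0. mt-Co1, the catalytic core subunit of complex IV, was the highest of all members at 14209 CPM per kilobase, followed by mt-Co2 (8604), mt-Atp6 (8563), mt-Co3 (7823) and mt-Cytb (6521), the cytochrome b of complex III. The complex I genes ran from mt-Nd1 at 4790 and mt-Nd4 at 4779 over mt-Nd2 (3658), mt-Nd5 (2531), mt-Nd6 (1788) and mt-Nd4l (1726) down to mt-Nd3 at 1304. mt-Atp8, whose short reading frame overlaps that of mt-Atp6 on the same transcript, was lowest at 415 CPM per kilobase, 204 bases long. mt-Nd6 lies on the opposite strand from the other 12.

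Among nuclear members, complex V was highest, with a median of 220 CPM per kilobase, before complex II (167), complex III (163), complex IV (144) and complex I (81.8), and the complex I assembly factors were at 13.7. Atp5b, the catalytic beta subunit of ATP synthase, led all nuclear members at 824 CPM per kilobase. Cox4i1, Uqcrh, Ndufc2, Sdhc and Ndufaf2 led their groups at 583, 384, 296, 262 and 23.6. The lowest member was Cox4i2 in complex IV (0.0524), Ndufa4l2 in complex I (0.178), Atp5s in complex V (5.90), Uqcrfs1 in complex III (105), Sdhd in complex II (93.9) and Ndufaf6 among the assembly factors (5.65). Cytochrome c (Cycs) was at 32.5 CPM per kilobase.

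Where a subunit has a housekeeping and a tissue-type form, the housekeeping form was higher per kilobase in each pair. Cox4i1 was at 357 to 530 CPM in the 12 libraries, while Cox4i2, the lung and hypoxia form, had 12 counts in all libraries together. Cox6a1 averaged 419.5 CPM per kilobase and its muscle form Cox6a2 0.136. Cox8a averaged 457 against 3.97 CPM per kilobase for the muscle form Cox8b, and Cox7a2 averaged 139 against 2.17 for the muscle form Cox7a1. The related Cox7a2l, whose product is not a core subunit, averaged 188.5. Cox7b averaged 86.5 CPM per kilobase, and Cox7b2, with 7 counts in total, was the only member left out by the filter on low counts. Cox6b1 averaged 331 CPM per kilobase and the testis form Cox6b2 31.1, the tissue form nearest to its partner among these Cox genes. For the c subunit of ATP synthase, Atp5g3 averaged 397 CPM per kilobase and Atp5g1 25.9.

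Ndufa4 and Cox5b, which encode widely expressed subunits of complex IV, were nearly empty in every library, with 34 and 121 counts in all 12 together. Ndufa4 shared 2.21% of its 31-base words with other annotated transcripts and Cox5b 16.1%, mostly with a pseudogene, Gm11273, that was not analysed here. Ndufa4l2, the other form of Ndufa4, had 48 counts in total. Why these 2 genes are low was not tested.

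**Figure D2:**
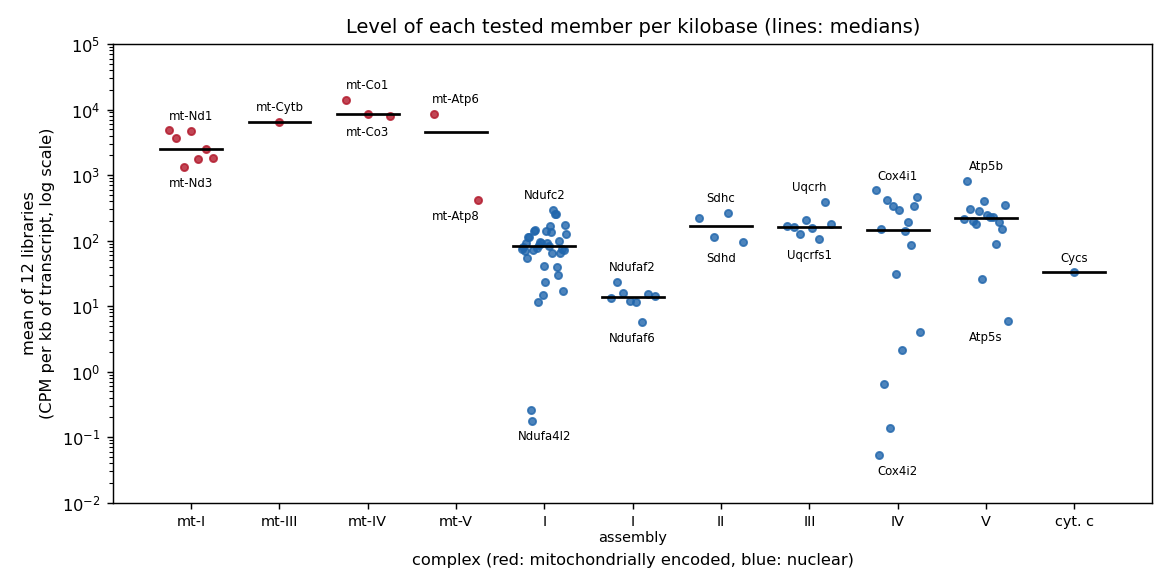
Mean CPM per kilobase over 12 libraries of each of the 104 tested members (points, log axis), by complex, with group medians as lines and the highest and lowest member named. Mitochondrially encoded genes (red) lie between 415 and 14209, and nuclear members (blue) at or below 824.

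Reads of several mitochondrially encoded genes cannot be told from those of nuclear copies of mitochondrial DNA. For mt-Co2, mt-Co3, mt-Atp6, mt-Nd4l and mt-Nd3, between 98.1% and 100% of 31-base words also occurred in an annotated nuclear transcript, and for mt-Co1 and mt-Nd4 63.9% and 62.8% did. The nearest copy of mt-Co2, Gm28661 (chr1:24614885-24615565, minus strand, GRCm38), matched it over all 681 bases compared, with 0 differences. That gene and the nearest copies of mt-Co3, mt-Atp6, mt-Nd3, mt-Nd4l and mt-Nd4 were not analysed here. The 7 copies in the table stayed at or below 0.985 CPM, and the mitochondrially encoded share of Kmt2a+/+ library 1 was 12.6546% without them and 12.6548% with them.

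The mitochondrially encoded genes varied more over the libraries than the nuclear members did. Their median coefficient of variation over 12 libraries was 47.5%, against 23.2% for the 81 nuclear members at or above 10 CPM and 21.2% for the 9444 tested genes at that level. mt-Co1 was at 44826, 19612 and 12689 CPM in the Kmt2a+/+ libraries and at 19587, 21787 and 17916 in those of Kmt2a+/LSL. The nes-cre+/- libraries had 17805, 19499 and 19135 CPM and the nes-cre+/-Kmt2a+/LSL libraries 30422, 20872 and 19288. The library order was the same as for the summed share at both ends. Kmt2a+/+ library 1 was the highest of the 12 for 10 of the 13 genes and Kmt2a+/+ library 3 the lowest for 11. In Kmt2a+/+ library 1 the 13 genes were 1.35 (mt-Cytb) to 3.99 (mt-Atp8) times the median library, and in nes-cre+/-Kmt2a+/LSL library 1 they were 1.35 (mt-Cytb) to 3.54 (mt-Atp8) times.

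Single genes departed from this shared pattern in nes-cre+/-Kmt2a+/LSL library 3. mt-Co2 was at 1530 CPM there and at 3812 to 11047 in the other 11 libraries, or 0.280 times the median library. In the same library mt-Nd3 was 1.97 times, mt-Nd4l 1.96 times and mt-Atp8 1.84 times the median, while mt-Co1, mt-Nd5 and mt-Nd4 were within 0.960 and 0.990 times. The 3 genes that were high are the shortest of the 13, at 204 to 348 bases. mt-Nd6 and mt-Nd4l were highest in nes-cre+/-Kmt2a+/LSL library 1, at 2.91 times the median each, where Kmt2a+/+ library 1 had 1.48 and 1.62 times.

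**Figure D3:**
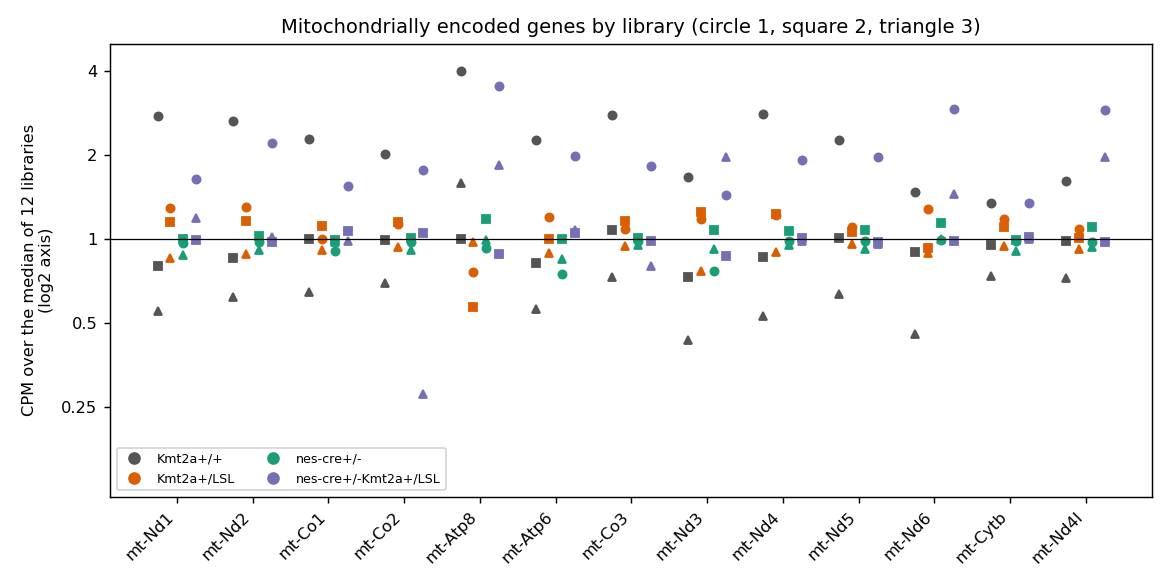
CPM of each mitochondrially encoded gene divided by its median over 12 libraries (log2 axis), with genotypes in colours and library numbers as symbols. Kmt2a+/+ library 1 is at 1.35 or above for all 13 genes, and mt-Co2 in nes-cre+/-Kmt2a+/LSL library 3 is at 0.280.

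The nuclear members did not shift as a block in Kmt2a+/+ library 1 but spread in both directions. Over the 84 nuclear members with a mean of at least 50 counts, the median log2 deviation of Kmt2a+/+ library 1 from the median library was -0.17, yet 13 members lay above 1 and 14 below -1. The spread was not particular to the members: of all 11677 genes with that many counts, 1199 lay above 1 and 3027 below -1 in this library. Uqcrb, a small subunit of complex III, was at 237 CPM in this library, with 40.8 to 103 in the other 11. Cycs was at 322 CPM against 54.2 to 121, Cox6c at 458 against 126 to 231, and Atp5j, a stalk subunit of ATP synthase, at 462 against 113 to 181. The opposite held for Atp5d, the delta subunit, at 26.3 CPM against 117 to 273, for Cox8a at 58.5 against 209 to 416, and for Uqcr11 at 14.6 against 36.1 to 144.

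These deviations were ordered by the GC content of the transcripts. The 13 mitochondrially encoded genes had 31.9% to 41.1% GC and the 84 nuclear members 40.8% to 61.1%. Across the 84 nuclear members, Spearman's rho between GC content and the deviation ran from -0.71 in Kmt2a+/+ library 1 to 0.69 in Kmt2a+/+ library 3; genes share library and depth and are not replicates. It was -0.44 in nes-cre+/-Kmt2a+/LSL library 1, -0.52 in Kmt2a+/LSL library 1 and 0.51 in nes-cre+/-Kmt2a+/LSL library 2. Over the 11622 genes with that many counts and a GC value, rho was -0.78, 0.75, -0.67, -0.25 and 0.36 in these 5 libraries in that order, so genes outside the respiratory chain were ordered by GC content too. The 21 nuclear members with at most 48.7% GC had a median deviation of 0.75 in Kmt2a+/+ library 1, and the 21 with at least 55.0% had -0.86. The 2 libraries with the lowest rho over all genes had the 2 highest mitochondrially encoded shares, and the library with the highest rho had the lowest share. Over the nuclear members, too, the library with the lowest rho had the highest share and the library with the highest rho the lowest share. The order in between was not strict. Kmt2a+/LSL library 1 had a lower rho than nes-cre+/-Kmt2a+/LSL library 1, at shares of 6.88% and 10.3%. With a rho of 0.51, nes-cre+/-Kmt2a+/LSL library 2 had a share of 6.36%. With a per-library offset for GC content, chosen after seeing the data, the median mitochondrially encoded log2 difference went from -0.30 to 0.05 for Kmt2a+/LSL and from -0.45 to -0.13 for nes-cre+/-, each against Kmt2a+/+. For nes-cre+/-Kmt2a+/LSL it went from 0.32 to 0.16 against Kmt2a+/LSL and from 0.42 to 0.31 against nes-cre+/-. The origin of the GC pattern was not tested.

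The starts of 5 coding sequences are given with G and C in capitals. Each line gives the first 120 bases from the coding start in the GRCm38 transcripts: mt-Co2 as an abundant mitochondrially encoded gene, Uqcrb and Cox6c as nuclear members that were high in Kmt2a+/+ library 1, and Cox8a and Atp5d as members that were low there.
mt-Co2: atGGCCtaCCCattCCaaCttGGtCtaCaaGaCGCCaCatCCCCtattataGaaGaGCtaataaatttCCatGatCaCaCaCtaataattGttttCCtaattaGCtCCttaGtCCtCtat
Uqcrb: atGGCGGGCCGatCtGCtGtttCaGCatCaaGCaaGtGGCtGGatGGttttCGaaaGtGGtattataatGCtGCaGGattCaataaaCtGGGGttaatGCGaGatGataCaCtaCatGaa
Cox6c: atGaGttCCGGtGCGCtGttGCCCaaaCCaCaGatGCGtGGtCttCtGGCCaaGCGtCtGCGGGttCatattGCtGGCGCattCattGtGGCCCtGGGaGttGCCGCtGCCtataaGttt
Cox8a: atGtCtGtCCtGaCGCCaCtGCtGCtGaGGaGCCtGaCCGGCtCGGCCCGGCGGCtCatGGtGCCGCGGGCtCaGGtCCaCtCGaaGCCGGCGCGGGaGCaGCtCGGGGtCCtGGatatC
Atp5d: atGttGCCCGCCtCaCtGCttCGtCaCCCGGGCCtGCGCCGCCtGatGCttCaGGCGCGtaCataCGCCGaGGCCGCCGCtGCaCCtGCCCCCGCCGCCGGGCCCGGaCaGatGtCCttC
G and C made up 46, 53, 67, 84 and 86 of the 120 bases in this order. Over the whole transcripts, on which the correlation rests, the GC content was 38.6%, 42.2%, 48.7%, 58.5% and 61.1%, so the printed start of Cox6c is richer in G and C than its transcript. The genes lie at chrM:7013-7696 (plus strand), chr13:66900617-66905378 (minus), chr15:35925886-35938246 (minus), chr19:7215153-7217616 (minus) and chr10:80138632-80145818 (plus).

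**Figure D4:**
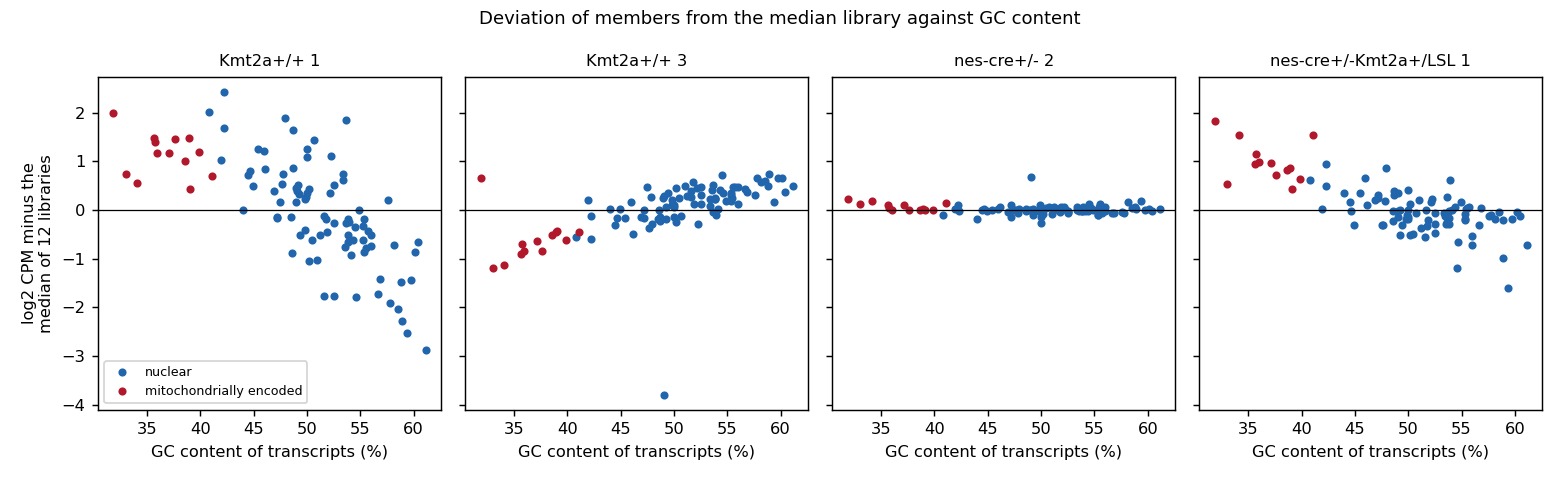
Log2 CPM of each member minus its median over 12 libraries, against the GC content of its transcripts, in 4 libraries (13 mitochondrially encoded genes in red, 84 nuclear members in blue). Values fall with GC content in Kmt2a+/+ library 1 (rho -0.71 over nuclear members) and rise in Kmt2a+/+ library 3 (0.69), and lie close to 0 in nes-cre+/- library 2.

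The library nes-cre+/-Kmt2a+/LSL 3 differed in another way. It was the highest of the 12 for 34 of the 84 nuclear members, with a median log2 deviation of 0.40, against -0.01 over all genes. Atp5k, a short subunit of the ATP synthase membrane part, was at 121 CPM, with 9.11 to 34.9 in the other 11 libraries. Atp5mpl was at 142 CPM against 48.1 to 86.9, Atp5e at 161 against 20.9 to 92.6, and Ndufa3 at 103 against 26.5 to 59.8. Here the deviation followed length: the 21 nuclear members of at most 554.5 bases had a median of 0.87, and the 21 of at least 1055 bases had 0.14. The 278 other genes of at most 554.5 bases had a median of 0.04 in the same library. That difference between short members and other short genes rests on 1 library and has no replicate check.

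Kmt2a+/LSL against Kmt2a+/+ asked whether loss of 1 Kmt2a allele moved the respiratory chain. In edgeR, 0 of 104 tested members and 0 of 17076 genes (0%) were called at an adjusted p under 0.05. Kmt2a itself, with means of 289.8 CPM in Kmt2a+/+ and 166 in Kmt2a+/LSL, was tested and was not called either. A gene that was not called is therefore not shown to be unchanged. At an unadjusted p under 0.05, 0 members were higher and 2 lower, against 0.832% and 1.28% of all genes. DESeq2's Wald test called 7 genes, limma-voom 2 and DESeq2 with an empirical null 32, none of them a member. The mitochondrially encoded genes were lower by the median (log2 -0.30, 10 of 13 lower) and the nuclear members nearly level (-0.08, 59 of 91 lower), with 0.00 over all genes. Both medians turned when 1 Kmt2a+/+ library was left out: without library 1 the mitochondrially encoded median was 0.35, and without library 3 the nuclear median was 0.07.

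In the same comparison, 10 members had no overlap between both sets of libraries, 1 higher and 9 lower, against 2.3% and 1.76% of all genes. mt-Atp8 was at 222, 55.8 and 88.4 CPM in Kmt2a+/+ and at 42.5, 31.8 and 54.1 in Kmt2a+/LSL. The log2 difference was -1.51 (SE 0.53, adjusted p = 1 in edgeR). Every Kmt2a+/LSL value lay below every Kmt2a+/+ value, and without Kmt2a+/+ library 1 the log2 fold change was -0.76. Ndufa6, an accessory subunit of complex I, was at 85.7, 50.2 and 60.0 CPM against 41.1, 41.6 and 43.4 (log2 -0.63, SE 0.22, adjusted p = 1 in edgeR), and -0.39 without Kmt2a+/+ library 1. Ndufa1, another accessory subunit, was at 32.8, 32.7 and 40.4 CPM against 23.0, 23.9 and 25.2 (log2 -0.56, SE 0.29). Atp5h, Atp5j2, Atp5l, Cox4i1, Ndufs6 and Uqcrh completed the lower group, with log2 fold changes of -0.31 (Cox4i1) to -0.55 (Atp5h). Atp5h was at 287, 128 and 140 CPM against 125, 126 and 127, and Atp5l at 151, 93.0 and 108 against 89.8, 89.2 and 90.1, so that Kmt2a+/+ library 1 stood well above the other 5 libraries for both. Ndufaf7, an arginine methyltransferase needed to assemble complex I, was the 1 higher member, at 18.1, 18.2 and 17.7 CPM against 22.0, 18.4 and 22.4 (log2 0.22, SE 0.17). For 3 libraries against 3, the exact permutation test cannot give less than 0.1, which each of these genes reached.

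Setting nes-cre+/-Kmt2a+/LSL against Kmt2a+/LSL asked what Cre together with removal of the cassette did. The genotypes differ in the Cre transgene as well as in the cassette, and this comparison cannot tell them apart. Again 0 of 104 members and 0 of 17076 genes (0%) were called in edgeR. At an unadjusted p under 0.05, 6 members were higher (1.46% of all genes) and 0 lower (0.609%). The Wald test of DESeq2 called 7 genes and limma-voom 2, with 0 members, whereas DESeq2 with its z-scores rescaled to an empirical null, the kind of correction the study used, called 945 genes, of them 18 members. By the median, mitochondrially encoded genes were 0.32 and nuclear members 0.16 higher on the log2 scale, with 12 of 13 and 72 of 91 members higher. Without nes-cre+/-Kmt2a+/LSL library 1 the mitochondrially encoded median was -0.011, and without library 3 the nuclear median was -0.0065.

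Libraries did not overlap for 11 members, 10 higher (3.54% of all genes) and 1 lower (3.57%). Atp5mpl, a small ATP synthase subunit, was at 58.7, 51.1 and 59.1 CPM in Kmt2a+/LSL and at 86.9, 59.3 and 142 in nes-cre+/-Kmt2a+/LSL (log2 0.77, SE 0.26, adjusted p = 1 in edgeR), and without library 3 the value was 0.38. Ndufc1, a membrane subunit of complex I, was at 34.4, 33.3 and 34.6 CPM against 66.8, 43.4 and 69.3 (log2 0.81, SE 0.48). Cox7c of complex IV was at 144, 137 and 144 CPM against 237, 148 and 290 (log2 0.67, SE 0.33), and 0.44 without library 3. For each of these genes library 2 of nes-cre+/-Kmt2a+/LSL lay nearest to the Kmt2a+/LSL values, and libraries 1 and 3 were higher. Sdhc was the 1 lower member, at 226, 225 and 231 CPM against 223, 222 and 207 (log2 -0.06, SE 0.22), and at -0.0292 without nes-cre+/-Kmt2a+/LSL library 3.

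**Figure D5:**
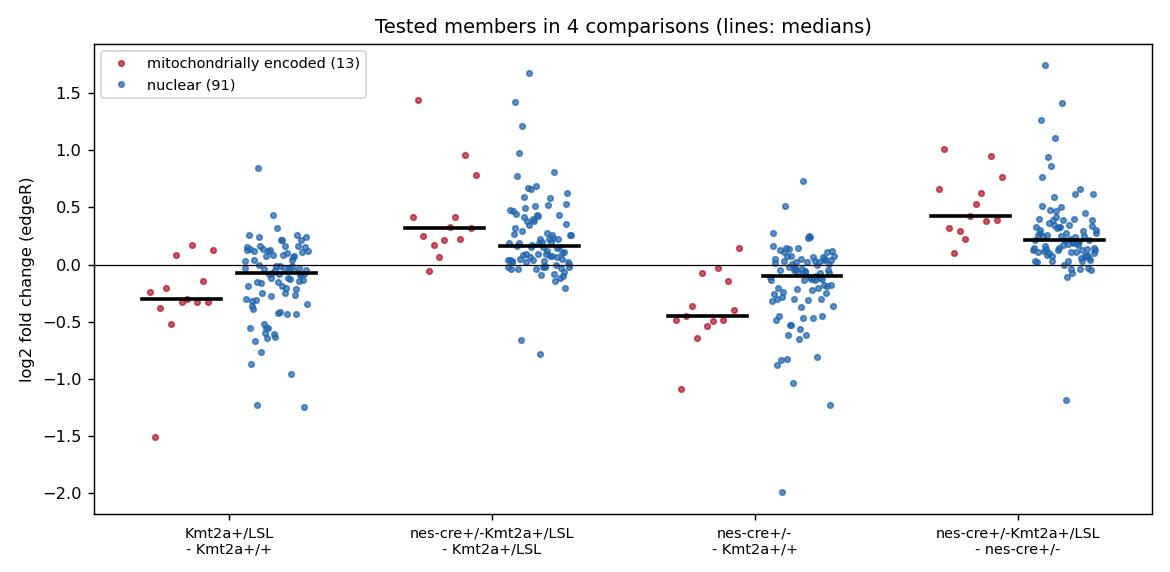
Log2 fold changes of the 13 mitochondrially encoded (red) and 91 nuclear (blue) tested members in 4 comparisons, with medians as lines. The medians are below 0 in both comparisons with Kmt2a+/+ and above 0 in both comparisons of nes-cre+/-Kmt2a+/LSL, and no member was called in edgeR.

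Cre alone, nes-cre+/- against Kmt2a+/+, gave 0 of 104 members and 0 of 17076 genes (0%) called in edgeR. At an unadjusted p under 0.05, 0 members were higher (0.937% of all genes) and 1 lower (0.826%), Atp5s. DESeq2's Wald test called 3 genes, limma-voom 0 and the empirical null 7, with 0 members. The mitochondrially encoded median was -0.45 and the nuclear median -0.10, and they were 0.26 without Kmt2a+/+ library 1 and 0.04 without library 3, respectively. Libraries did not overlap for 2 higher (2.82% of all genes) and 7 lower members (1.53%). The 3 largest differences among the lower members were Atp5l (log2 -0.45), Ndufs6 (-0.45) and Uqcrh (-0.36), and without Kmt2a+/+ library 1 Atp5l was at -0.23 and Uqcrh at -0.21. Uqcrh, the hinge protein of complex III, was at 252, 188 and 184 CPM in Kmt2a+/+ and at 153, 163 and 168 in nes-cre+/-. Ndufaf7 (log2 0.23) and Atp5mpl (0.12) were the higher ones, and Atp5mpl was at 0.0686 without Kmt2a+/+ library 1 and at -0.0214 with the GC offset. This comparison and that of Kmt2a+/LSL share the 3 Kmt2a+/+ libraries.

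The LSL allele in the presence of Cre, nes-cre+/-Kmt2a+/LSL against nes-cre+/-, gave the most one-sided picture, still with 0 of 104 members and 0 of 17076 genes (0%) called in edgeR. By sign alone, all 13 mitochondrially encoded genes and 84 of 91 nuclear members were higher, 93.3% of members together, against 51% of all genes tested. The medians were 0.42 and 0.21 on the log2 scale, with 0.01 over all genes, and members are not independent of each other. Of the lists of related genes described below, import, channels and dynamics had 18 of 21 higher (85.7%). The citric acid cycle had 13 of 17 higher (76.5%), and the other lists had 50% to 66.7%. Among nuclear members, complex I had 35 of 38 higher (median 0.20), complex III 8 of 8 (0.29), complex IV 16 of 16 (0.35) and complex V 16 of 16 (0.25). Complex II had 3 of 4 higher (0.0458) and the complex I assembly factors 5 of 8 (0.0694), and no difference between complexes was tested. The sets depended on different libraries. Without nes-cre+/-Kmt2a+/LSL library 1 the mitochondrially encoded median was 0.09 and 9 of 13 genes were higher, and without library 3 the nuclear median was 0.03 and 54 of 91 members were higher.

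At an unadjusted p under 0.05, 2 members were higher here (0.914% of all genes) and 0 lower (0.621%), namely Atp5mpl and mt-Nd4l. DESeq2's Wald test called 3 genes, limma-voom 0 and the empirical null 261, with 0, 0 and 7 members. Libraries did not overlap for 15 higher (3.1% of all genes) and 1 lower member (3.58%). Atp5mpl was at 55.1, 59.2 and 55.1 CPM in nes-cre+/- against 86.9, 59.3 and 142 (log2 0.77, SE 0.26), the closest pair being 59.2 and 59.3, and without nes-cre+/-Kmt2a+/LSL library 3 the value was 0.37. mt-Atp6, a core of the proton channel, was at 3914, 5201 and 4410 CPM against 10362, 5456 and 5615 (log2 0.66, SE 0.45), and 0.30 without library 1. Ndufc1 was at 36.2, 37.6 and 39.7 CPM against 66.8, 43.4 and 69.3 (log2 0.66, SE 0.47). Ndufa9, a complex I subunit near the quinone site, was the 1 lower member, at 16.5, 26.2 and 22.7 CPM against 16.2, 9.74 and 2.83 (log2 -1.19, SE 0.81), and -0.75 without library 3. It was also at 1.10 CPM in Kmt2a+/+ library 3 and at 26.6 in Kmt2a+/LSL library 1, a 24.2-fold range over all libraries.

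The difference between the LSL effects with and without Cre was tested directly as an interaction. It was called for 0 of 104 members and 0 of 17076 genes (0%) in edgeR, and by DESeq2's Wald test for 10, by limma-voom for 0 and by the empirical null for 17 genes, none of them a member. At an unadjusted p under 0.05, 13 members had a positive difference (1.2% of all genes) and 0 a negative one (0.808%). They were mt-Atp8, Atp5h, Atp5j2, Atp5l, Cox6c, Cox7b, Cox7c, Ndufa1, Ndufa6, Ndufb2, Ndufc1, Uqcrb and Uqcrh, with mt-Atp8 at 2.52 (SE 0.74, adjusted p = 1.00 in edgeR). In either direction, 1 of 104 members beside 309 of 16922 genes passed without nes-cre+/-Kmt2a+/LSL library 3, and 1 beside 321 of 16946 without nes-cre+/- library 1. Without each of the other 10 libraries, 4 to 20 members passed beside 249 to 754 genes, with 4 to 7 members where a Kmt2a+/LSL library or nes-cre+/- library 2 or 3 was left out. The median difference was 0.72 for mitochondrially encoded genes and 0.26 for nuclear members. Without Kmt2a+/+ library 1 the first was 0.0261, and without nes-cre+/-Kmt2a+/LSL library 1 it was 0.38. Without nes-cre+/-Kmt2a+/LSL library 3 the nuclear median was 0.10. Without Kmt2a+/+ library 1 and nes-cre+/-Kmt2a+/LSL library 1, an alternative chosen after seeing the data, the medians were -0.39 and 0.43.

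Complex II and cytochrome c served as wholly nuclear points of reference. Sdha, the flavoprotein subunit, was at 464, 394 and 456 CPM in Kmt2a+/+ and at 420, 385 and 429 in Kmt2a+/LSL. With nes-cre+/- alone it was at 356, 387 and 362, and with nes-cre+/-Kmt2a+/LSL at 348, 404 and 396. Its largest log2 fold change in the 4 comparisons was -0.25 (SE 0.14), for nes-cre+/-, whose libraries all lay below those of Kmt2a+/+. Sdhb and Sdhd stayed within -0.21 and 0.22 on the log2 scale, and Sdhc within -0.06 and 0.21. Cycs, by contrast, had an SE of 0.55 or more in every comparison, with log2 fold changes of -1.03 to 0.46. It was at 322, 59.8 and 54.2 CPM in Kmt2a+/+, 111, 85.4 and 82.2 in Kmt2a+/LSL and 76.5, 74.3 and 61.4 in nes-cre+/-. The negative values against Kmt2a+/+ thus rested on library 1 of Kmt2a+/+, since its libraries 2 and 3 lay below all of both other genotypes. Cycs shared 26.2% of its 31-base words with Gm10053, which was at 28.4 to 64.7 CPM.

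Genes that act beside the respiratory chain were described by lists. None of 30 genes for mitochondrial transcription and RNA handling, 45 other assembly factors (of which Cox7a2l is also a member), 77 mitochondrial ribosomal proteins, 18 nuclear regulators such as Nrf1 and Gabpa, 17 genes of the citric acid cycle, 21 genes of import, channels and dynamics, or 15 mitochondrial stress genes was called in any comparison in edgeR. For nes-cre+/-Kmt2a+/LSL against nes-cre+/-, their median log2 fold changes were 0.00, 0.05, 0.05, 0.04, 0.09, 0.08 and 0.11 in that order, beside 0.42 and 0.21 for the mitochondrially encoded and nuclear members. Leaving out 1 library at a time, these 2 medians ran from 0.0942 (without nes-cre+/-Kmt2a+/LSL library 1) to 0.57 and from 0.032 (without its library 3) to 0.33, and the lists were not refitted without a library. For Kmt2a+/LSL against Kmt2a+/+ the list medians ranged from -0.08 to 0.05, and for nes-cre+/-Kmt2a+/LSL against Kmt2a+/LSL from -0.08 to 0.06. For nes-cre+/- against Kmt2a+/+ they ranged from -0.15 (citric acid cycle) to 0.02 (mitochondrial ribosomal proteins). There import, channels and dynamics were at -0.14 and mitochondrial transcription and RNA handling at -0.12. The mitochondrially encoded and nuclear members were at -0.45 and -0.10 in that comparison.

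Markers of cell types also moved with the libraries. Kmt2a+/+ library 1, with the highest mitochondrially encoded share, had the lowest summed astrocyte (1566 CPM) and oligodendrocyte lineage markers (1277) of the 12. Its progenitor and neuron markers summed highest (19030 and 1954) but went both ways: Fabp7 was at 8960 CPM against 2430 to 4932 and Map2 at 1874 against 979.8 to 1675, while Sox2 (226), Notch1 (359), Msi1 (19.2), Hes5 (2.14), Tubb3 (3.03) and Rbfox3 (0.476) were lower there than in the other 11. There Mki67, a proliferation marker, was at 1429 CPM against 206 to 707 in the other 11 libraries, and Olig1 at 705 against 2565 to 4144. Astrocyte markers summed to 1566 to 4843 CPM in Kmt2a+/+, 2658 to 3645 in Kmt2a+/LSL, 2158 to 3575 in nes-cre+/- and 2141 to 3161 in nes-cre+/-Kmt2a+/LSL. For nes-cre+/-Kmt2a+/LSL against nes-cre+/-, 6 of 8 astrocyte markers and 7 of 9 oligodendrocyte lineage markers were lower, with median log2 fold changes of -0.24 and -0.14. Against Kmt2a+/LSL, where the members' medians were also above 0, 7 of 8 and 6 of 9 were lower, with medians of -0.35 and -0.37. For Kmt2a+/LSL against Kmt2a+/+, 9 of 10 neuron markers were lower (median -0.26), 7 of 9 oligodendrocyte lineage markers were higher (0.18) and astrocyte markers were split 4 and 4. For nes-cre+/- against Kmt2a+/+, 7 of 10 neuron markers were lower (-0.12) and 6 of 9 oligodendrocyte lineage markers higher (0.18). None of these markers was called in edgeR in the 4 comparisons. The part of cell composition in the members' values was not tested.

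The promoters of the nuclear members were read from RefSeq (GRCm38.p6), from 250 bases before to 50 after the start, for 76 of 92 members. NRF1 and ETS factors are classical regulators of respiratory chain genes. On either strand, the letters GCGCATGC, a core of the NRF1 motif, occurred for 15.8% of these members and 5.02% of 13055 genes, CCGGAAG (ETS) for 23.7% and 16.4%, and AAGATGG (YY1) for 15.8% and 7.61%, while GGGCGG (SP1) occurred for 46.1% and 62.2%. These are matches of letters and say nothing of binding in these cells.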

How the data were processed

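Poly(A) RNA from 12 mNPC libraries (4 genotypes, 3 libraries each) had been sequenced. Per the labels and the study's methods, the authors pseudoaligned reads with kallisto 0.48.0 to the mm10 (GRCm38) transcriptome and summed transcripts to genes, and deposited an estimated count per gene and library, in whole numbers without normalization. Tests were laid out for read counts, and these estimates entered them unchanged. Identifiers were matched to GENCODE on GRCm38, which named 18735 of 18911 (99.1%). Whether counting used strand is not given in the sources used here.

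A gene was tested when its libraries summed to over 10 counts and 2 or more of them had any (17076 genes). Counts were TMM-normalized and tested with edgeR 4.0.16 (R 4.3.3), quasi-likelihood F-test, genotype as the only term, 12 libraries in 1 fit, Benjamini-Hochberg adjusted p under 0.05. CPM values are scaled by the TMM-adjusted library size, and log2 values used a prior count of 2. Intervals, SDs and the floor of 3 counts cover counting and library spread only. The alternatives used DESeq2 1.42.0, limma 3.58.1, other filters and scalings, the replicate number as a block and each library left out. Scripts were tested on simulated data.

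The members, gene lists and tests were chosen with earlier results of these data known. Named were all mitochondrially encoded genes, Sdha to Sdhd, Cycs, the isoform pairs, the highest and lowest member of each complex, and per comparison up to 3 members in each direction with the largest difference among those with a mean of at least 50 normalized counts and no overlap between libraries. The members named for single libraries, Uqcrb, Cox6c, Atp5j, Atp5d, Uqcr11, Atp5k, Atp5e and Ndufa3, as well as Cox5b and those listed by count were chosen after their values were seen.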

Additional observations from a re-analysis of the deposited data

How the results depend on the processing

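The count of members called was 0 in edgeR in all 5 comparisons and stayed 0 with each library left out (range 0 to 0), with other size factors, filters and quasi-likelihood options, limma-voom, DESeq2's Wald test and an adjusted p under 0.1. The empirical null called 18 of 104 members beside 945 of 17076 genes for nes-cre+/-Kmt2a+/LSL against Kmt2a+/LSL, and 7 beside 261 against nes-cre+/-. The replicate numbers were not taken as pairing: in none of the 4 pairs of genotypes compared did all 3 same-numbered pairs correlate over 0.1 in their deviations. Over all genotypes the 18 same-numbered pairs averaged 0.115 (-0.11 to 0.51) and the 36 others -0.0549. Kmt2a+/+ and nes-cre+/-Kmt2a+/LSL, not compared directly but both part of the interaction, had 0.21 to 0.51. Kmt2a+/+ and Kmt2a+/LSL had 0.06 to 0.30, and the other pairs of genotypes compared had -0.11 to 0.14. With the replicate block, 0 members were called in each comparison, and the median for mitochondrially encoded genes in nes-cre+/-Kmt2a+/LSL against nes-cre+/- was 0.37. Of 264 alternatives for medians of log2 fold changes, 18 turned the sign. For mitochondrially encoded genes in Kmt2a+/LSL against Kmt2a+/+, limma-voom with sample weights gave 0.27, the GC offset 0.0501, and libraries left out in turn -0.65 to 0.35. Leaving out library 1 of Kmt2a+/+ and of nes-cre+/-Kmt2a+/LSL together, and then also library 3 of the latter, gave 0.35 and 0.33. The second set leaves nes-cre+/-Kmt2a+/LSL with 1 library, assumed to vary like the other genotypes. With the first set out, 17 to 41 of 104 members beside 698 to 2569 of 16858 genes had an unadjusted p under 0.05 in the 5 comparisons, with 0 members called. In the other comparisons these medians ran as follows. For nes-cre+/-Kmt2a+/LSL against Kmt2a+/LSL they were -0.011 to 0.49 with libraries left out in turn, -0.0334 and -0.0819 with those sets left out. For nes-cre+/- against Kmt2a+/+ they were 0.18 with limma-voom, -0.78 to 0.26 in turn, and 0.26 and 0.25 with the sets left out. For the interaction they were -0.13 with limma-voom, 0.0261 to 1.10 in turn, and -0.39 and -0.29 with the sets left out. The nuclear medians, with libraries left out in turn, were -0.15 to 0.0726 for Kmt2a+/LSL against Kmt2a+/+, -0.00645 to 0.29 for nes-cre+/-Kmt2a+/LSL against Kmt2a+/LSL, and -0.19 to 0.0363 for nes-cre+/- against Kmt2a+/+. Atp5mpl in nes-cre+/- against Kmt2a+/+ was -0.0214 with the GC offset. Both medians for nes-cre+/-Kmt2a+/LSL against nes-cre+/- were above 0 under every alternative run, though for mitochondrially encoded genes only 0.0802 and 0.0024 with the sets left out, with 9 and 7 of 13 higher. Apart from library removal, by which fewer samples enter, the cause of these changes was not tested. The GC offset and both sets were chosen after seeing the data.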
